A study of Mus musculus with 23 samples.

Results

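Itih5, Tdrp, Lypd6b and Enc1 are 4 genes that are seldom discussed in regulatory T (Treg) cells. They were chosen because earlier results on these arrays had them past the test threshold, each in the same direction, in all 3 comparisons of Foxp3+ or CD25+ T cells with their partner cells. Itih5 was the higher gene and the other 3 were lower. The array annotation names 8 probe sets for them alone, of 45101 on the array: 3 for Itih5, 1 for Tdrp, 1 for Lypd6b and 3 for Enc1. They are 4 of the 18193 genes measured, and all 4 were among the 12516 genes tested, because at least 1 group mean of each lay above the median of all values, 6.27 on the log2 scale.

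The 23 arrays (Affymetrix M430v2) carried RNA of CD4+ T cells that had been sorted from mice into 9 groups, and all values below are log2 of the deposited intensity. All cells passed a CD3+, CD4+ gate without B220, CD8a or CD11b/c, and all mice were 6 to 10 weeks old and labelled male. The gut pair was lamina propria (LP) Treg (2 arrays) and LP Tconv (2), Foxp3-GFP+ and Foxp3-GFP- cells of the small intestine of C57BL/6-Foxp3/GFP mice, with 4 to 6 mice pooled per array. The homeostatic pair, Foxp3+ (3) and Foxp3- (3), came from Foxp3-GFP- CD4+ cells of BDC2.5/NOD mice, moved into NOD RAG-/- hosts and sorted from spleen and lymph nodes at 14 days (2 to 3 mice per array). These hosts make neither T nor B cells, and the donor cells carry a transgenic T cell receptor. The DEC pair, CD25+ (3) and CD25- (4), came from CD25- CD4+ cells of HA6.5/Thy1.2/RAG-/-/Balb/c mice moved into Balb/c mice. The Balb/c hosts got DEC-HA peptide once, at 50 ng per mouse, and the cells were sorted by CD25 at 3 weeks (5 to 10 mice per array). The partner cells of both transfer pairs had been through the same transfer as the Foxp3+ or CD25+ cells. The last 3 groups were Foxp3-GFP+ Treg of peripheral lymph nodes of C57BL/6-Foxp3/GFP mice, of which 2 arrays hold CD103+Klrg1+ cells, 2 hold CD103-Klrg1- cells and 2 hold CD103+Klrg1- cells, with 4 to 6 mice per array. The spread between arrays is one between pools of mice. No Foxp3- lymph node group was among the arrays, so the lymph node subsets have no partner group and were tested only against each other.

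As background, Treg cells restrain immune responses under the transcription factor Foxp3, and CD103 (Itgae) and Klrg1 mark Treg with an effector or tissue phenotype. Itih5 encodes a heavy chain of the inter-alpha-trypsin inhibitor family, secreted proteins that bind hyaluronan in the extracellular matrix. Tdrp encodes a nuclear protein known from spermatogenesis. Lypd6b encodes a membrane-anchored protein with a Ly6/uPAR domain that modulates nicotinic acetylcholine receptors. Enc1 encodes a Kelch-BTB protein that binds actin and can serve as an adaptor of CUL3 ubiquitin ligases, and it is a known target gene of beta-catenin.

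The array medians lay between 63.7 and 81.1 intensity units and were lowest in DEC CD25- replicates 3 and 4 (68.5 and 63.7). DEC CD25- replicate 3 also had the widest log2 gap between 3' and 5' Gapdh probe sets, a measure of RNA length (6.59, against 1.63 to 3.92 on the other 22 arrays), the lowest mean correlation with its own group (0.884, against at least 0.909) and the lowest mean of the T cell markers (9.89, against 10.79 to 11.70). Foxp3 averaged 10.42 to 11.21 in the LP Treg, homeostatic Foxp3+ and DEC CD25+ groups, 4.65 in LP Tconv and 4.76 in homeostatic Foxp3-. In DEC CD25- it ran from 6.92 to 8.48, so those partner arrays were not free of Foxp3 signal. Xist, the RNA that coats the silenced X in females, read 11.85 to 13.25 throughout the DEC groups, against their male label, and 6.47 to 7.67 elsewhere. In pooled RNA, a change in the share of cells that express a gene and a change in RNA per cell cannot be told apart.

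On the array annotation's symbols, RefSeq (GRCm38.p6) places Itih5 and Lypd6b on chromosome 2, Tdrp on chromosome 8 and Enc1 on chromosome 13. Of the 4 genes, 1 matched the RefSeq promoter table, Itih5, and its promoter is shown. The sequence is the plus strand of chr2:10153293-10153535 in RefSeq's GRCm38.p6, the 243 bases before the annotated start, with a GC box (GGGCGG) in capitals:

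Itih5: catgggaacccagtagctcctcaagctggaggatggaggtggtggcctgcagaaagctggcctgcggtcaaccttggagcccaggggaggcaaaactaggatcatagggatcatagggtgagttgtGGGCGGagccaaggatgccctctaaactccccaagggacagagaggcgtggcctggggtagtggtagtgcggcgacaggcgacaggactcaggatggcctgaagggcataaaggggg

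The window holds 60.5% G or C, against a median of 52.3% over 32851 promoter windows of that length. On both strands it holds 1 match to GGGCGG, which occurs in 31.8% of those windows. The forkhead motifs TGTTTAC and TGTTTGT, the STAT motif TTCNNNGAA, the TATA box TATAAA and the NFAT core GGAAA had 0 matches, and 3.10%, 5.70%, 6.86%, 12.2% and 54.5% of the windows hold them. None of them thus overlaps the GC box, and a match or its lack in this window describes the letters only.

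**Figure D1:**
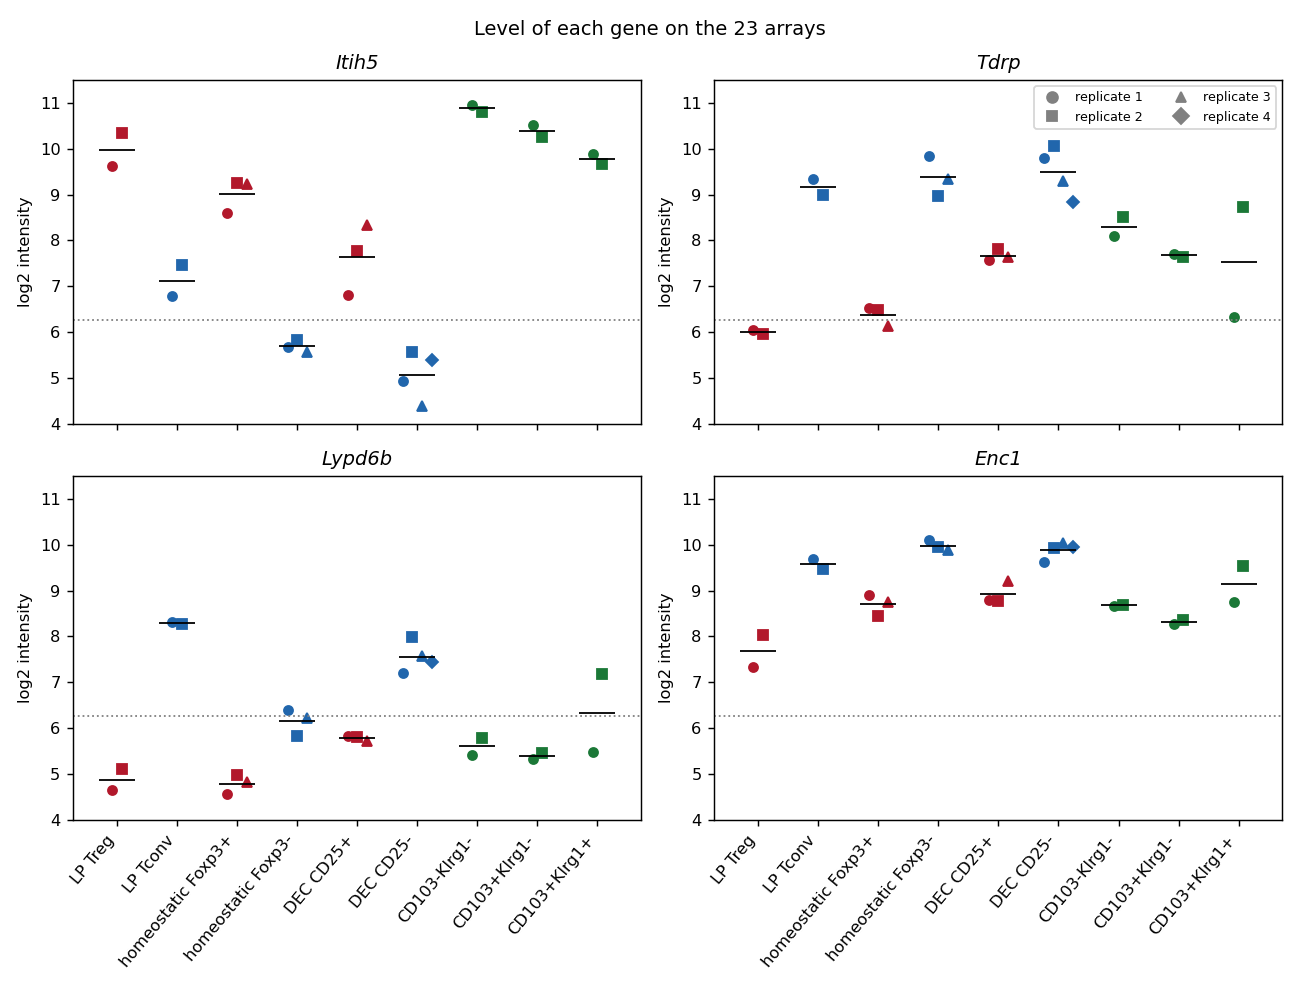
Log2 intensity (y axis) of the probe set that stands for each gene on the 23 arrays, by group (x axis); marks show the replicate number, bars the group mean and the dotted line the filter at 6.27. Itih5 sits higher on every Foxp3+ or CD25+ array (red) than on its partner arrays (blue), the other 3 genes sit lower, and in the CD103+Klrg1+ group replicate 2 lies far above replicate 1 for Tdrp (8.73 against 6.33).

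Itih5 read higher on every Foxp3+ or CD25+ array than on the partner arrays of its pair. In the gut, LP Treg arrays read 9.62 and 10.35 and LP Tconv arrays 6.78 and 7.45. In the homeostatic pair the Foxp3+ arrays read 8.60, 9.24 and 9.22 and the Foxp3- arrays 5.67, 5.83 and 5.57. In the DEC pair the CD25+ arrays read 6.81, 7.77 and 8.33, and the CD25- arrays 4.93, 5.56, 4.39 and 5.38. The groups of each pair did not overlap, as held for 30.9%, 22.3% and 5.46% of all tested genes in the gut, homeostatic and DEC pairs. The gap between the nearest arrays was 2.16 in the gut, 2.76 in the homeostatic pair and 1.26 in the DEC pair. Mean differences were 2.87 in the gut (7.29-fold; pooled SD 0.50, n = 2 and 2), 3.33 in the homeostatic pair (at least 10.1-fold; pooled SD 0.28, n = 3 and 3) and 2.57 in the DEC pair (at least 5.95-fold; pooled SD 0.63, n = 3 and 4). "At least" is written where the lower group mean lies below the filter, since background can hold up the lower value. Among the 12516 tested genes, these differences ranked 21, 6 and 3 from the highest.

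Of the partner groups, LP Tconv stood highest in Itih5, without overlap. LP Tconv averaged 7.11 ± 0.48 (SD, n = 2), homeostatic Foxp3- 5.69 ± 0.13 (n = 3) and DEC CD25- 5.07 ± 0.52 (n = 4). The homeostatic and DEC means lay below the filter, where background can hold up values, and the nearest arrays of these groups read 5.57 and 5.56. The LP Tconv level was close to that of DEC CD25+ cells, 7.64 ± 0.77 (n = 3), and those arrays overlapped. In the order of all 9 groups, Itih5 was highest in CD103-Klrg1- lymph node Treg (10.88 ± 0.12), followed by CD103+Klrg1- (10.39 ± 0.19), LP Treg (9.98 ± 0.51), CD103+Klrg1+ (9.78 ± 0.16) and homeostatic Foxp3+ (9.02 ± 0.37). LP Treg overlapped both of its neighbours in that order. Below homeostatic Foxp3+ came DEC CD25+, without overlap. The gut, homeostatic, DEC and lymph node groups differ in strain, tissue or transfer, which cannot be told apart. Here and below, an order across them describes levels only.

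The other 2 Itih5 probe sets followed the main probe set (1429159_at) over the 23 arrays, with r = 0.97 for 1441946_at and r = 0.89 for 1436755_at. Arrays of 9 groups set these correlations, which are given as a description. Their differences were smaller. For 1441946_at they were 1.63, 1.51 and 1.38 in the gut, homeostatic and DEC pairs, with no overlap of arrays. For 1436755_at they were 1.32, 0.80 and 0.47, both group means of every pair lay below the filter, and the DEC arrays overlapped.

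**Figure D2:**
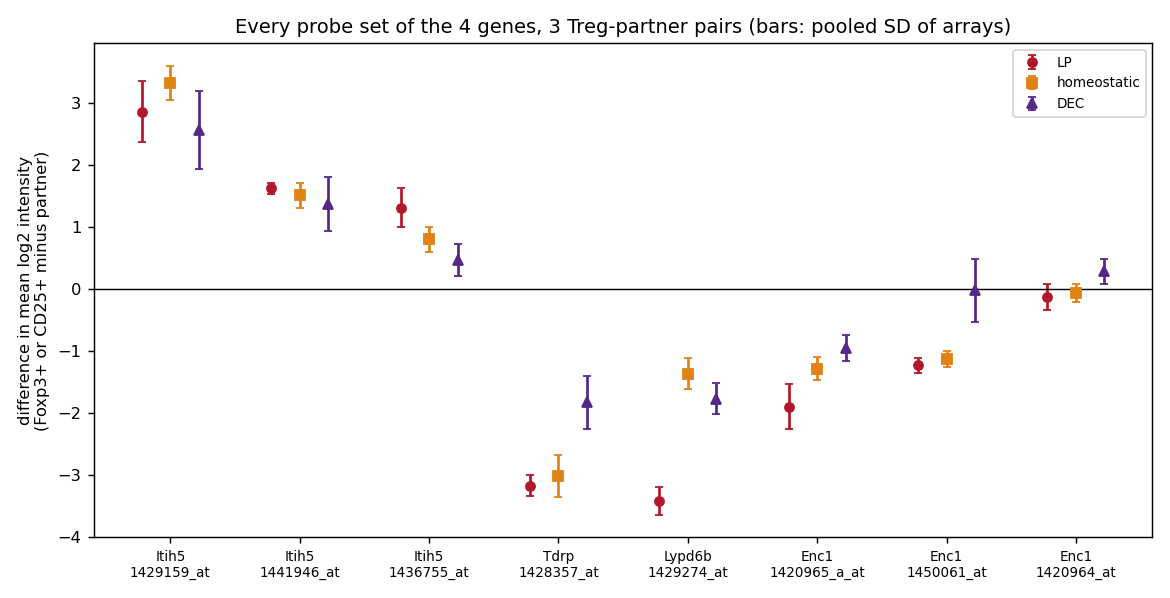
Difference in mean log2 intensity between Foxp3+ or CD25+ arrays and partner arrays (y axis) for each of the 8 probe sets (x axis); bars are the pooled SD between arrays of the pair. All 3 Itih5 probe sets lie above 0, while of the Enc1 probe sets 1450061_at lies at -0.02 in the DEC pair and 1420964_at stays near 0.

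Tdrp was the lower gene with the widest gap in the homeostatic pair. In the gut it read 6.03 and 5.95 on the LP Treg arrays and 9.33 and 8.99 on the LP Tconv arrays. The homeostatic Foxp3+ arrays read 6.51, 6.47 and 6.12 and the Foxp3- arrays 9.84, 8.97 and 9.34. The DEC CD25+ arrays read 7.57, 7.80 and 7.63, and the CD25- arrays 9.79, 10.05, 9.29 and 8.84. The groups of each pair did not overlap, as held for 30.9%, 22.3% and 5.46% of all tested genes in the gut, homeostatic and DEC pairs. The 3 partner groups lay close together, at means of 9.16, 9.38 and 9.49 with overlapping arrays. The Foxp3+ or CD25+ groups did not lie together: LP Treg averaged 5.99 ± 0.06, homeostatic Foxp3+ 6.37 ± 0.22 and DEC CD25+ 7.67 ± 0.12. Mean differences were -3.17 in the gut (at least 9.01-fold; pooled SD 0.18), -3.02 in the homeostatic pair (8.09-fold; pooled SD 0.34) and -1.82 in the DEC pair (3.54-fold; pooled SD 0.43). They ranked 12, 3 and 2 from the lowest of all tested genes. Without DEC CD25- replicates 3 and 4, the arrays of low median, the DEC difference was -2.25.

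Lypd6b, the Ly6/uPAR gene, lay below the filter on every Foxp3+ or CD25+ array of the 3 pairs. LP Treg arrays read 4.65 and 5.10 and LP Tconv arrays 8.32 and 8.27. The homeostatic Foxp3+ arrays read 4.56, 4.97 and 4.82 and the Foxp3- arrays 6.39, 5.82 and 6.23. The DEC CD25+ arrays read 5.82, 5.81 and 5.73, and the CD25- arrays 7.20, 7.98, 7.58 and 7.45. The groups of each pair did not overlap, as held for 30.9%, 22.3% and 5.46% of all tested genes in the gut, homeostatic and DEC pairs. Of the partner groups, LP Tconv stood highest (8.30 ± 0.04, n = 2), DEC CD25- next (7.55 ± 0.33, n = 4) and homeostatic Foxp3- lowest (6.15 ± 0.29, n = 3), with no overlap, and the homeostatic mean lay below the filter. Mean differences were -3.42 in the gut (at least 10.7-fold; pooled SD 0.23), -1.36 in the homeostatic pair (at least 2.57-fold; pooled SD 0.25) and -1.77 in the DEC pair (at least 3.40-fold; pooled SD 0.26). The lower level of every pair lay under the filter, so each of these differences is a lower bound. Their ranks from the lowest were 10, 79 and 3.

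Enc1, the Kelch-BTB gene, had the smallest differences of the 4 in all 3 pairs and was well above the filter in every group. LP Treg arrays read 7.34 and 8.03 and LP Tconv arrays 9.70 and 9.48. The homeostatic Foxp3+ arrays read 8.91, 8.44 and 8.76 and the Foxp3- arrays 10.11, 9.95 and 9.88. The DEC CD25+ arrays read 8.80, 8.78 and 9.21, and the CD25- arrays 9.62, 9.93, 10.03 and 9.94. The groups did not overlap, with gaps of 1.45, 0.98 and 0.41 between the nearest arrays. In these pairs 30.9%, 22.3% and 5.46% of all tested genes did not overlap. Mean differences were -1.90 (3.73-fold; pooled SD 0.36), -1.28 (2.43-fold; pooled SD 0.19) and -0.95 (1.94-fold; pooled SD 0.21) in the gut, homeostatic and DEC pairs.

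The Enc1 probe sets disagreed in the DEC pair. The main probe set (1420965_a_at) and 1450061_at both read lower in LP Treg and homeostatic Foxp3+ cells, with differences of -1.23 and -1.13 for 1450061_at and no overlap. In the DEC pair 1450061_at read 8.51, 8.51 and 8.22 on the CD25+ arrays and 9.01, 8.93, 8.06 and 7.71 on the CD25- arrays, a mean difference of -0.02 with overlapping arrays. The low values of that probe set were those of DEC CD25- replicates 3 and 4, the arrays of low median, and replicate 3 is the array with the Gapdh gap of 6.59. Without these 2 arrays the DEC differences were 2.39 for Itih5, -1.80 for Lypd6b and -0.85 for Enc1, which was then no longer past the threshold. The part of RNA quality in the DEC values was not tested. Its correlation with the main probe set over the 23 arrays was 0.64. The third probe set, 1420964_at, stayed between 4.35 and 5.31 on all arrays, passed no filter and had r = 0.10 with the main one.

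By the rule that chose them, 4 of 4 genes were past the threshold (limma, adjusted p under 0.05 over 12516 genes) in each of the 3 pairs. Of all tested genes, 2.70% were past it in the gut pair, 1.76% in the homeostatic pair and 0.495% in the DEC pair, and nothing is read from the genes' own count. With same-numbered arrays as blocks, the homeostatic and DEC counts were 480 in place of 220 and 139 in place of 62 genes, and Enc1 was no longer past the threshold in the DEC pair. In the same direction, 15 genes were past it in all 3 pairs, 10 higher and 5 lower. The higher genes besides Itih5 were Foxp3, Il2ra, Ikzf2, Ikzf4, Gpr83, Neb, Phlpp1, Slc2a3 and Tnfrsf9, and the lower genes besides Tdrp, Lypd6b and Enc1 were Sema4a and Il1rl2. The largest adjusted p of the 3 comparisons was 0.00056 for Itih5, 0.0246 for Lypd6b, 0.0389 for Enc1 and 0.0479 for Tdrp, in limma with Benjamini-Hochberg adjustment. These p-values come from the pairs that chose the genes. They only place each gene against the threshold and are no test of it. Leaving out 1 array ended the Lypd6b call in the homeostatic pair in 5 of 6 cases (not without Foxp3- replicate 2). In the DEC pair it ended the Tdrp call in 5 of 7 cases (not without CD25- replicate 1 or 4) and the Enc1 call in 6 of 7 (not without CD25- replicate 1). With the gut groups fitted alone Itih5 and Enc1 were not past the threshold, and with the DEC groups fitted alone none of the 4 was. Just outside lay Mfsd6 and Rragd, both at 0.0537, and Pde7a at 0.0579.

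Markers of other cells moved with some of these differences. Klrd1, a receptor gene of NK and CD8 T cells, averaged 5.33 in LP Treg and 8.13 in LP Tconv (SE of the difference 0.72, adjusted p = 0.0438 in limma) and fell by 2.53 in homeostatic Foxp3+ against Foxp3- cells (SE 0.59, adjusted p = 0.0308 in limma). Of the 8 measured CD8 T and NK cell markers 7 were tested, and no other of these passed in these pairs. The summed level of those 8 ran from 8.51 to 8.82 in LP Treg, 9.30 to 9.49 in LP Tconv, 10.71 to 11.53 in homeostatic Foxp3+, 11.95 to 12.12 in homeostatic Foxp3-, 8.80 to 8.82 in DEC CD25+ and 8.69 to 9.04 in DEC CD25- arrays. The sums thus did not overlap in the gut and homeostatic pairs and overlapped in the DEC pair. The brightest marker weighs most in such a sum. The mean log2 of those 8 did not overlap in the gut pair either. In the homeostatic pair it overlapped, at 6.26 to 7.26 in Foxp3+ and 7.14 to 7.42 in Foxp3- arrays. The median difference over the 7 tested was -0.06, -0.29 and -0.06 in the gut, homeostatic and DEC pairs. Of 19 tested myeloid and dendritic markers, 0 passed in any of the 3 pairs by limma, with 0, 0 and 8 at an unadjusted p under 0.05 in the gut, homeostatic and DEC pairs. Of 9 tested B and plasma cell markers, 0 passed by limma, with 2, 2 and 3 at that unadjusted p. Of all tested genes, 8.71%, 7.57% and 14.8% were at that unadjusted p in the 3 pairs. The median difference over the myeloid and dendritic list was 0.05, -0.52 and 0.62 in the gut, homeostatic and DEC pairs. Over the B and plasma cell list it was 0.10, 0.02 and 0.13, against -0.01, -0.03 and 0.16 over all genes. The summed myeloid and dendritic level ran from 13.40 to 13.77 in DEC CD25+ and from 12.82 to 13.43 in DEC CD25- arrays, which overlapped. It was highest in the homeostatic arrays, at 13.93 to 14.72 for Foxp3+ and 14.27 to 15.15 for Foxp3- cells, which overlapped too. In the gut it ran from 13.28 to 13.51 in LP Treg and from 12.97 to 13.11 in LP Tconv arrays, without overlap. Of the T cell markers, Thy1, a surface glycoprotein that stromal cells carry too, fell by 1.86 in LP Treg against LP Tconv cells (means 9.77 and 11.62, SE 0.33, adjusted p = 0.0027 in limma). The part of other cells in the levels of the 4 genes was not tested.

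The lymph node subsets were not used to choose the genes, so their differences were tested. By limma with Benjamini-Hochberg adjustment, 0 of the 4 genes passed in CD103+Klrg1- over CD103-Klrg1-, in CD103+Klrg1+ over CD103+Klrg1- or in CD103+Klrg1+ over CD103-Klrg1-. Of all tested genes, 0.0959%, 0.647% and 2.10% passed in these comparisons. At an unadjusted p under 0.05, 0, 2 and 1 of the 4 did, against 2.04%, 3.83% and 6.81% of all genes.

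Itih5 had its highest levels in the subset with neither marker. The CD103-Klrg1- arrays read 10.96 and 10.80, the CD103+Klrg1- arrays 10.52 and 10.25, and the CD103+Klrg1+ arrays 9.89 and 9.67. No arrays of different subsets overlapped, as held for 29.7%, 31.0% and 36.8% of all tested genes in the 3 comparisons. CD103+Klrg1+ lay 1.10 below CD103-Klrg1- (2.15-fold; SE 0.42, adjusted p = 0.388 in limma), with a 95% interval of the difference from -1.99 to -0.21. The steps were -0.49 for CD103+Klrg1- over CD103-Klrg1- (95% interval -1.38 to 0.39) and -0.61 for CD103+Klrg1+ over CD103+Klrg1- (-1.50 to 0.28), adjusted p = 1.00 for both in limma.

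The other Itih5 probe sets had the same order of subset means. Probe set 1441946_at read 8.96 and 8.50, then 8.00 and 8.16, then 7.87 and 7.39. Its CD103+Klrg1+ over CD103-Klrg1- difference was -1.10 (adjusted p = 0.0947 in limma over 21612 probe sets, of which 1.88% passed). Probe set 1436755_at read 6.81 and 6.21, then 5.45 and 5.75, then 5.42 and 4.95, with a difference of -1.32. Only the CD103-Klrg1- mean of that probe set, 6.51, lay above the filter, so its difference is given with no test. With the lymph node arrays fitted alone, the difference of the main probe set, -1.10, passed (adjusted p = 0.0191 in limma). With the mean of the 3 probe sets, which includes 1436755_at, the difference was -1.17 (adjusted p = 0.0169 in limma). Nothing is read from that p, because 1436755_at lies above the filter only in the subset where it is highest. Over all alternatives of this comparison the adjusted p ran from 0.0169, the value with the mean of probe sets, to 1.00. The difference ran from -1.21 to -0.99.

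**Figure D3:**
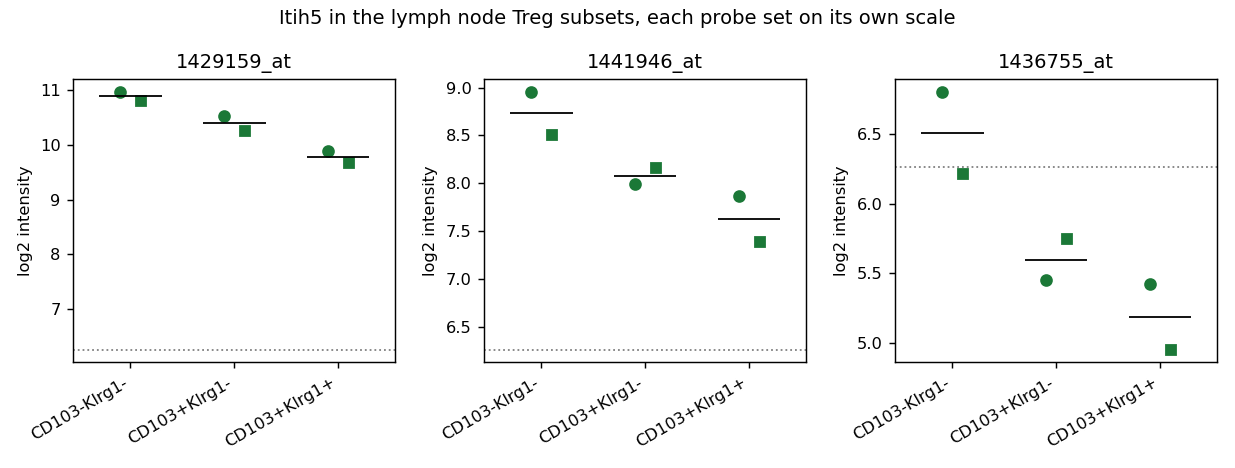
Log2 intensity (y axis, each panel on its own scale) of the 3 Itih5 probe sets on the 6 lymph node Treg arrays by subset (x axis); circles are replicate 1, squares replicate 2, bars the mean of 2 arrays and the dotted line the filter at 6.27. The subset means of 1429159_at are 10.88, 10.39 and 9.78, and the other probe sets keep that order.

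Tdrp differed more between the 2 CD103+Klrg1+ arrays than between the means of any subsets. It read 8.09 and 8.50 in CD103-Klrg1-, 7.70 and 7.64 in CD103+Klrg1-, and 6.33 and 8.73 in CD103+Klrg1+. Replicate 1 of the last subset thus lay below all other lymph node arrays and replicate 2 above them. The difference of CD103+Klrg1+ over CD103-Klrg1- was -0.77 (SE 0.52, adjusted p = 1.00 in limma), with a 95% interval from -1.85 to 0.32. Without replicate 2 it was -1.97, and without replicate 1 it was 0.44. Each of these rests on a lone CD103+Klrg1+ array, so it is given with no test. Over CD103+Klrg1- the difference was -0.14, and it was -1.34 without replicate 2 and 1.06 without replicate 1. CD103+Klrg1- lay 0.62 below CD103-Klrg1-, with an interval from -1.71 to 0.46.

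Lypd6b and Enc1 were also high on CD103+Klrg1+ replicate 2. Lypd6b read 5.42 and 5.78, then 5.33 and 5.45, then 5.48 and 7.19, so 5 of the 6 arrays lay below the filter and only that replicate above it. Its difference of CD103+Klrg1+ over CD103+Klrg1- was 0.95 (SE 0.37, adjusted p = 0.83 in limma; 95% interval 0.16 to 1.74). Without replicate 1 it was 1.80, and without replicate 2 it was 0.09. Over CD103-Klrg1- it was 0.74, and 1.59 without replicate 1 and -0.12 without replicate 2. A difference without either replicate rests on a lone CD103+Klrg1+ array, so it is given with no test.

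Enc1 read 8.67 and 8.69 in CD103-Klrg1-, 8.27 and 8.35 in CD103+Klrg1-, and 8.75 and 9.54 in CD103+Klrg1+. On this main probe set both CD103+Klrg1+ arrays lay above all other lymph node arrays. Of all tested genes, 31.0% did not overlap in CD103+Klrg1+ over CD103+Klrg1- and 36.8% in CD103+Klrg1+ over CD103-Klrg1-. The difference over CD103+Klrg1- was 0.84 (1.79-fold; SE 0.26, adjusted p = 0.312 in limma; 95% interval 0.29 to 1.38), and it passed with array weights (adjusted p = 0.0482). It was 0.44 without replicate 2 and 1.23 without replicate 1. CD103+Klrg1- lay 0.37 below CD103-Klrg1- (95% interval -0.91 to 0.18) with no overlap of arrays, as held for 29.7% of all tested genes. Probe set 1450061_at read 8.23 and 8.98 on the CD103+Klrg1+ arrays, the higher value again on replicate 2. It read 8.19 and 8.43 in CD103-Klrg1- and 8.02 and 8.25 in CD103+Klrg1-, so on this probe set the subsets overlapped.

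The 2 CD103+Klrg1+ arrays were compared over the 15 genes shared by the 3 pairs. All 5 lower genes read higher on replicate 2: Tdrp by 2.40, Sema4a by 1.73, Lypd6b by 1.70, Il1rl2 by 0.93 and Enc1 by 0.79. Of all 12516 tested genes, 0.0479%, 0.240%, 0.256%, 1.17% and 1.75% differed that far in that direction, and 123 genes (0.983%) by at least 1. Of the 10 higher genes, 8 read lower on replicate 2, by 1.06 for Tnfrsf9, 1.00 for Gpr83, 0.66 for Il2ra and 0.62 for Foxp3 down to 0.10 for Phlpp1, with Itih5 at -0.22. The median difference over all tested genes was -0.03, and the sort markers Itgae and Klrg1 were high on both arrays (13.04 and 13.48 as lowest and highest for Itgae, 14.14 and 14.18 for Klrg1).

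Markers of other cells were also higher on replicate 2. All 8 measured CD8 T and NK cell markers were, with a summed level of 10.92 against 9.18 and Klrd1 at 10.22 against 7.39. So were 18 of 21 myeloid and dendritic markers (summed level 13.92 against 13.68) and 9 of 11 B and plasma cell markers (12.25 against 11.56). In the other 4 lymph node arrays the CD8 T and NK sum ran from 9.33 to 9.73 and the myeloid and dendritic sum from 13.52 to 13.82. The B and plasma cell sum ran from 10.80 to 11.35 there, so both CD103+Klrg1+ arrays lay above it. The median difference of that list was 0.54 over CD103+Klrg1- and 0.70 over CD103-Klrg1-, against 0.01 and -0.01 over all genes. Of 9 T cell markers, 3 were higher on replicate 2. Whether cells outside the gate or the spread between pools account for the levels on this array was not tested.

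**Figure D4:**
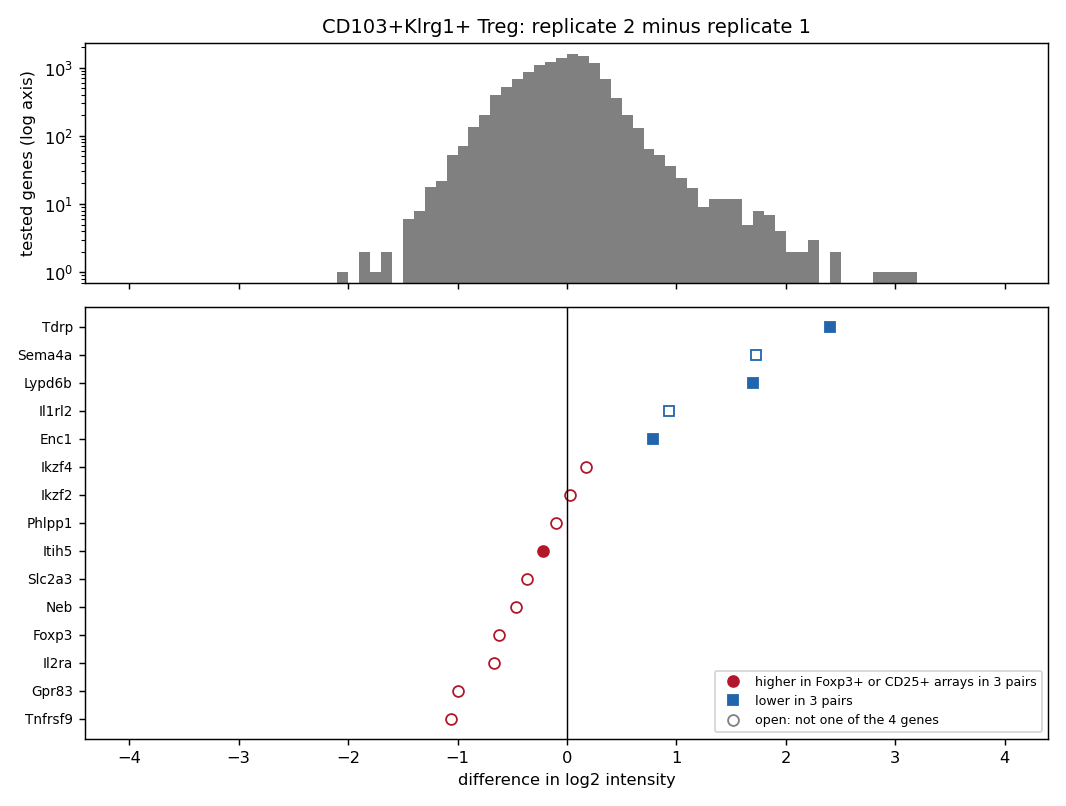
Difference in log2 intensity between the 2 CD103+Klrg1+ arrays, replicate 2 minus replicate 1 (x axis): above, the number of tested genes per bin of 0.1 on a log axis; below, the 15 shared genes (y axis), filled marks for the 4 genes described here. The 5 genes lower in Foxp3+ or CD25+ cells (blue squares) lie between 0.79 and 2.40, and 8 of the 10 higher genes (red circles) lie below 0.

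Set beside each other over the 23 arrays, the 3 lower genes moved together, with r = 0.84 for Tdrp and Enc1, 0.82 for Tdrp and Lypd6b and 0.75 for Lypd6b and Enc1. Itih5 ran against them, with r = -0.70, -0.63 and -0.81 for Tdrp, Lypd6b and Enc1. These values describe arrays of groups from which the genes were chosen. Itih5 had r = 0.72 with Foxp3 over the 23 arrays but -0.71 over the 6 lymph node arrays, where Foxp3 averaged 10.35, 10.83 and 11.20 from CD103-Klrg1- to CD103+Klrg1+. Over those 6 arrays Itih5 and Tdrp had r = 0.25 and Lypd6b and Enc1 r = 0.93, the last with replicate 2 of CD103+Klrg1+ as its highest point.

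The tested genes most like each of the 4 over the 23 arrays were named by Pearson r. For Itih5 they were Pard6g (0.92), a cell polarity gene, Mgst2 (0.90), a microsomal glutathione transferase, Gng12 (0.90), a G protein gamma subunit, Ecm1 (0.89), an extracellular matrix protein, and Etfbkmt (0.88), a lysine methyltransferase. Over the 6 lymph node arrays 4 of these kept r between 0.67 and 0.89, and Etfbkmt had -0.80. For Tdrp they were Tgfbr3 (0.89), a co-receptor of TGF-beta, Pde7a (0.87), a cAMP phosphodiesterase, Enc1, Dennd2d (0.83) and Lypd6b. Over the lymph node arrays r ran from 0.41 for Enc1 to 0.97 for Tgfbr3. Tgfbr3 read 6.75 and 8.93 on the CD103+Klrg1+ arrays, where Tdrp read 6.33 and 8.73, and that split weighs on the r of 0.97. For Lypd6b they were Pde7a (0.87), Tdrp, Vipr1 (0.80), a receptor of vasoactive intestinal peptide, Usp48 (0.78) and Nmrk1 (0.77), with lymph node r from 0.30 for Nmrk1 to 0.58 for Tdrp. For Enc1 they were Tdrp, Rgcc (0.82), a cell cycle regulator, Adh1 (0.81), an alcohol dehydrogenase, Ifitm10 (0.81) and Tgfbr3 (0.79), with lymph node r from -0.05 for Adh1 to 0.84 for Rgcc.

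Relatives of the 4 genes were counted by list. With 2.70%, 1.76% and 0.495% of all genes past the threshold in the 3 pairs, a count of 0 in lists of this size is near the background, and nothing is read from it. Nor is anything read from the counts at an unadjusted p under 0.05, a level that 8.71%, 7.57% and 14.8% of all genes reached in the 3 pairs and 2.04%, 3.83% and 6.81% in the lymph node comparisons. Of 12 tested genes of the inter-alpha-trypsin inhibitor and hyaluronan list without Itih5, 0 passed in the 3 pairs by limma, with 0, 2 and 1 at an unadjusted p under 0.05 and medians of -0.06, -0.13 and 0.08 against -0.01, -0.03 and 0.16 over all genes. Cd44, the main hyaluronan receptor, rose in CD103+Klrg1+ over CD103-Klrg1- cells (by 1.67, SE 0.34, adjusted p = 0.0093 in limma). Of 15 tested Ly6/uPAR genes besides Lypd6b and 32 tested Kelch-BTB and CUL3 ligase genes besides Enc1, 0 passed in any of the 6 comparisons by limma. At an unadjusted p under 0.05 there were 0 or 1 Ly6/uPAR genes and 0 to 4 Kelch-BTB and CUL3 ligase genes in each comparison. Of 5 tested nicotinic acetylcholine receptor subunits, Chrnb1, a muscle-type beta subunit, rose in LP Treg over LP Tconv (by 0.95, SE 0.22, adjusted p = 0.022) and in CD103+Klrg1+ over CD103-Klrg1- cells (by 1.43, adjusted p = 0.00091), both in limma.

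Among 14 tested genes of Nrf2 and its targets, listed because Enc1 can act on Nrf2, Gsta4 fell by 2.31 (SE 0.32) in CD103+Klrg1+ over CD103+Klrg1- cells and fell by 2.60 over CD103-Klrg1- cells. Gsta4 encodes a glutathione transferase that detoxifies lipid peroxidation products. Its adjusted p was 0.00098 and 7.8e-05 in limma, and 0 genes of that list passed in the 3 pairs, with 2, 0 and 2 at an unadjusted p under 0.05. Of 16 tested Wnt and beta-catenin targets besides Enc1, Axin2, a feedback inhibitor of Wnt signalling, fell by 0.91 in homeostatic Foxp3+ over Foxp3- cells (SE 0.22, adjusted p = 0.0444 in limma), and Cd44, held by this list too, passed as given above.

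Genes beside the 4 on the chromosome were looked at as well, as 2 on each side in RefSeq. Of these 16, 13 were measured and 10 tested, and 0 of 10 passed in any of the 6 comparisons by limma, with 0 to 3 at an unadjusted p under 0.05 in each. Itih2, a family member next to Itih5, differed by -0.11, -0.06 and 0.16 in the gut, homeostatic and DEC pairs, where Itih5 differed by 2.87, 3.33 and 2.57. Fbxo25, next to Tdrp, differed by 0.01, -0.33 and 0.29. Lypd6, next to Lypd6b and of the same family, lay below the filter in every group and was not tested.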

How the data were processed

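RNA was isolated with Trizol and amplified in 2 rounds, per the labels' protocols. The deposited values are intensity from the RMA algorithm, run by the authors in GenePattern per the series' design text; the version and the scan dates are not given in the sources used here. Log2 was taken with no pseudocount (deposited range 4.706 to 26750).

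Probe sets with 1 symbol in the platform annotation (34945) gave 18193 genes, each standing on its probe set of highest mean. Genes with at least 1 group mean above the median of all values (77.0 intensity units) were tested: 12516. limma 3.58.1 in R 4.3.3 fitted 9 group means to all 23 arrays (14 residual and 3.48 prior degrees of freedom). The script was tested on simulated data. Adjusted p is Benjamini-Hochberg over all tested genes, two-sided, threshold 0.05. Figures used matplotlib 3.10.9. Spread is between pools of mice, and 2 to 4 arrays a group limit the precision.

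Same-numbered arrays deviated together in the homeostatic pair (r = 0.66, 0.58 and 0.49) and the DEC pair (0.39, 0.51 and 0.38), which was read from the residuals as pairing; the labels do not state it. In the gut pair r was -0.07, and in the lymph node comparisons 0.39, 0.37 and 0.72; with 2 numbers a group these were not read as pairing.

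The genes and lists were chosen with earlier results of these data known. Named were the 4 genes with every probe set, the other genes past the threshold in all 3 pairs, the 5 most alike by Pearson r, list genes past the threshold (at most 4 per list), neighbours and sort markers. Alternatives were quantile normalization, no filter, other probe set rules, replicate blocks, each system alone, array weights, and arrays left out.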

Additional observations from a re-analysis of the deposited data

How the results depend on the processing

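The differences of the 4 genes in the 3 Treg-partner pairs kept their sign under all alternatives run. They moved by more than the spread between arrays with the mean of probe sets (Itih5 1.94, 1.88 and 1.47 and Enc1 -1.08, -0.83 and -0.23 in the gut, homeostatic and DEC pairs), and in the DEC pair with quantile normalization (Lypd6b -2.03, Enc1 -1.23), array weights (Enc1 -0.69) and without both CD25- arrays of low median (Tdrp -2.25). Quantile normalization shifted the median of all genes in the DEC pair from 0.16 to -0.05. With the DEC groups fitted alone, 5 genes passed, and Itih5, Tdrp, Lypd6b and Enc1 were not among them. With the gut groups fitted alone, Itih5 and Enc1 were not past the threshold.

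Leaving out 1 array gave Itih5 2.50 to 3.23, 3.22 to 3.54 and 2.23 to 2.99, Tdrp -3.34 to -3.00, -3.22 to -2.79 and -2.04 to -1.64, Lypd6b -3.64 to -3.20, -1.52 to -1.24 and -1.88 to -1.62, and Enc1 -2.24 to -1.55, -1.38 to -1.15 and -1.09 to -0.88. The number of genes past the threshold then ran from 173 to 513, 133 to 173 and 19 to 330 in the 3 pairs.

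In the lymph node comparisons (CD103+Klrg1- over CD103-Klrg1-, CD103+Klrg1+ over CD103+Klrg1-, CD103+Klrg1+ over CD103-Klrg1-), 12, 81 and 263 genes passed. The counts were 27, 136 and 453 with the replicate block, 99, 264 and 599 with array weights, and 28, 134 and 398 without both DEC CD25- arrays of low median. For the last comparison they were 467 with the lymph node arrays fitted alone and 407 with each probe set on its own. Leaving out 1 array gave 0 to 8, 25 to 47 and 124 to 201. The labels do not say that lymph node arrays share a pool by number, and the block changed no call of the 4 genes there. For the gut, homeostatic and DEC pairs, the counts of 338, 220 and 62 became 615, 480 and 139 with the block and 221, 1236 and 193 with array weights. Fitted alone, the systems gave 17, 741 and 5.

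In the DEC pair Tdrp was not past the threshold with no filter and with each probe set on its own, and Enc1 was not with the mean of probe sets, the block, array weights or without both low-median arrays. In the lymph node comparisons, the Itih5 call changed in CD103+Klrg1+ over CD103-Klrg1- (-1.17 with the mean of probe sets, -1.10 with the lymph node arrays alone). The Enc1 call changed in CD103+Klrg1+ over CD103+Klrg1- (0.84 with array weights). Fits that leave 1 CD103+Klrg1+ array are given by size alone. With an array left out, Tdrp ran from -1.34 to 1.06 over CD103+Klrg1- and from -1.97 to 0.44 over CD103-Klrg1-, and Lypd6b from 0.094 to 1.80 and from -0.12 to 1.59. The cause was not tested.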

Other observations

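The genes with the widest excess on CD103+Klrg1+ replicate 2 over replicate 1 were looked at after the values were seen, by size alone and with no test. Tnfaip2 read 8.01 against 4.85, Adgre4, an adhesion receptor of myeloid cells, 7.36 against 4.31, and Hspa1b, an inducible heat shock gene, 10.04 against 7.09. Klrd1 came next, then Pde3b, a cAMP phosphodiesterase, at 10.37 against 7.95, and Tdrp was rank 6 of all tested genes. Tgfbr3, the gene most like Tdrp over the 23 arrays, was rank 10 at 8.93 against 6.75. Eomes, a transcription factor of cytotoxic lymphocytes, was rank 12 at 8.07 against 6.00. For 11 of the 12 widest replicate 2 lay above the mean of both other lymph node subsets, while Actn1 at 10.10 lay below the CD103-Klrg1- mean of 10.84. Replicate 1 lay below both means for Tdrp (6.33 against 7.67 and 8.29) and Tgfbr3 (6.75 against 8.08 and 8.84). For Hspa1b it lay above the CD103+Klrg1- mean (7.09 against 6.84). The split is thus not set by replicate 2 alone.

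Of all tested genes, 1.89% lay at least 1 log2 unit apart in CD103+Klrg1+, 1.10% in CD103-Klrg1-, 0.815% in CD103+Klrg1-, 2.29% in LP Treg and 15.2% in LP Tconv.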
